A study of Homo sapiens with 18 samples.

Results

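The genes described here are 33 members of the protein families that place, remove or recognise acetyl groups on histones, or help to do so. Not all act mainly on histones: SIRT3, SIRT4 and SIRT5 are mitochondrial, HDAC6 deacetylates tubulin and HDAC10 polyamines. These 33 genes were chosen by name and matched on the gene symbol among the 57500 genes of the count table. The set holds 11 zinc-dependent histone deacetylases (HDACs), 7 sirtuins, 10 lysine acetyltransferases, 3 p160 coactivators and 2 readers of the BET family. All 33 were detected in every library and passed the filter on low counts, and the lowest count of any of them was 13 reads, for SIRT4. RNA-seq was made from IMR90, an established line of human fetal lung fibroblasts, in 6 groups of 3 libraries. Prol cells were dividing, and Sen(IR) cells had been driven into senescence by irradiation. Sen(IR)+CCCP cells were irradiated and then exposed to CCCP, a mitochondrial uncoupler, after which they were without mitochondria. The remaining groups were Sen(IR)+CCCP cells given acetate (Sen(IR)+CCCP+Acetate), mitochondrial DNA (Sen(IR)+CCCP+mtDNA) or both (Sen(IR)+CCCP+Acetate+mtDNA). Every group except Prol was irradiated, and 4 of the 6 groups received CCCP. According to the study's methods the clearance of mitochondria was carried out in cells engineered for it, and the mtDNA was transfected. The study describes the senescent cells of the acetate experiment as carrying the same modification, which the labels do not state and which is not given for the Prol cells. The labels name no separate cultures, while the study counts its cell culture replicates as independent experiments.

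Acetylation of lysines in histone tails loosens chromatin and creates docking sites for bromodomain proteins. Acetyltransferases (the writers) take the acetyl group from acetyl-CoA, HDACs and sirtuins (the erasers) remove it, and BET proteins (readers) bind it and help RNA polymerase II to elongate. The word eraser is used here for every HDAC and sirtuin of the set, whatever its main substrate. Zinc-dependent HDACs hydrolyse the bond, class I members mostly inside nuclear corepressor complexes, whereas sirtuins use NAD+ as a co-substrate. Acetyl-CoA is made from citrate exported by mitochondria or from free acetate. Neither acetyl-CoA nor histone acetylation was measured in these libraries.

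Library totals ran from 24624886 to 46224280 counts. Transcripts of the 13 mtDNA genes that code for protein took 2.62% of counts in Prol and 2.11% in Sen(IR), but 0.122% in Sen(IR)+CCCP, and stayed between 0.0505% and 0.132% in the treated CCCP groups. MKI67, a proliferation marker, averaged 59.1 CPM in Prol, 15.3 in Sen(IR), 30.4 in Sen(IR)+CCCP and 26 with mtDNA, but 3.18 with acetate and 4.8 with both. CPM were computed with edgeR from the counts and the TMM-scaled library sizes. All 9 fibroblast markers were detected in every library, and each was lower in Sen(IR)+CCCP than in Sen(IR), with a median log2 change of -1.95. Summed over each list, endothelial markers reached at most 0.964 CPM, leukocyte markers 1.11 CPM and epithelial markers 31.1 CPM in any library, with CD3E at 0 in 15 of 18 libraries. Library 2 of Sen(IR)+CCCP+Acetate+mtDNA stood apart from its group, with a mitochondrial share of 0.237% against 0.064% and 0.0624% and a CXCL10 level of 229 CPM against 52 and 53.7. Library 3 of Sen(IR) differed from libraries 1 and 2 by a chi-square per degree of freedom of 27.2 and 22.1, against 3.29 between those, and had a mitochondrial share of 2.64% against 1.94% and 1.75%. Without it 5 members were higher and 16 lower in Sen(IR) than in Prol, 18 higher and 4 lower in Sen(IR)+CCCP than in Sen(IR), and 18 higher and 4 lower in Sen(IR)+CCCP+Acetate than in Sen(IR). The part of these shifts in the results below was not tested. In bulk RNA, fewer expressing cells and less RNA per cell cannot be told apart.

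Levels of different genes were compared only on the authors' TPM, which are corrected for gene length. In Prol cells HDAC1, a class I deacetylase of the NuRD, SIN3 and CoREST complexes, was the most abundant transcript of the set at 110.3 TPM. BRD2, a BET reader, followed at 71.5 TPM, NCOA3 at 47.2 and HDAC2 at 46.9. SIRT4 (3.35 TPM), HDAC4 (3.42) and HDAC10 (4.21) were at the bottom of the order. In Sen(IR)+CCCP cells BRD2 took the first place with 208.7 TPM and HDAC1 the second with 120.9 TPM. The sum over the 33 genes in CPM, which is not corrected for gene length and so gives long genes more weight, was 1408 in Prol, 1241 in Sen(IR) and 1768 in Sen(IR)+CCCP.

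Promoter sequence from RefSeq (GRCh38.p14) was matched for 28 of the 33 genes, each as the 250 bases before the start of its first entry. Some genes had more than 1 entry, up to 5 for HDAC4 and HDAC9, and their other entries were not used. HDAC5, SIRT7, KAT6A, KAT8 and NCOA2 had no entry. The windows of 4 genes are shown because the results turn on these genes: the paralogous writers EP300 (chr22:41092342-41092591, plus strand) and CREBBP (chr16:3880714-3880963, minus strand), the writer KAT5 (chr11:65712002-65712251, plus strand) and the eraser HDAC11 (chr3:13480056-13480305, plus strand). Capitals mark every match, on either strand, to the letters GGGCGG of the GC box, to CCAAT, to the core TGACG of the cAMP response element, to the E-box CACGTG, to the ETS motif CCGGAAGT or to the TATA box TATAAA.
EP300: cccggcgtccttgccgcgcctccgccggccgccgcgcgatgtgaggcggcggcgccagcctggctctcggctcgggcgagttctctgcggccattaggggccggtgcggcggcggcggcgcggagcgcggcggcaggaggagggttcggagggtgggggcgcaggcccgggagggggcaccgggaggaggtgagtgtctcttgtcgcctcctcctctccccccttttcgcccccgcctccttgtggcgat
CREBBP: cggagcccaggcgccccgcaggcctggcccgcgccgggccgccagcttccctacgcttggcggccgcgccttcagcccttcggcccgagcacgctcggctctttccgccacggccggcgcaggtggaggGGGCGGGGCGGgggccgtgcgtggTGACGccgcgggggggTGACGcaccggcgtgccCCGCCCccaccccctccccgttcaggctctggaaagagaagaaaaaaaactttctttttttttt
KAT5: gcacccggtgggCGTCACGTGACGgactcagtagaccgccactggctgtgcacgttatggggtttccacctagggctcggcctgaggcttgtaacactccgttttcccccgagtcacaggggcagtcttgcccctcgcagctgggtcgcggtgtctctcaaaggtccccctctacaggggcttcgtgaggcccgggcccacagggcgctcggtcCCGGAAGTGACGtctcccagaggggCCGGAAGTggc
HDAC11: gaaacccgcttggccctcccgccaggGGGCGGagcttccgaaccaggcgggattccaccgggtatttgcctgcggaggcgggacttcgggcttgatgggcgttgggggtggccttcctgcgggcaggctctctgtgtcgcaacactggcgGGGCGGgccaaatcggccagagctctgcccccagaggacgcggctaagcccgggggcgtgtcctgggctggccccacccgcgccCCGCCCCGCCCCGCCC
The EP300 window held none of the 6 motifs, although 76.8% of its bases were G or C. CREBBP carried 3 GC boxes and 2 TGACG cores, and HDAC11 carried 5 GC boxes. In KAT5 the E-box shared letters with a TGACG core on each strand, and the window also held 2 ETS motifs, 1 of which shared letters with the third TGACG core. Over the 28 member windows 14 held a GC box (42.6% of all 35116 windows did), 7 a CCAAT box (32.0%), 8 a TGACG core (21.2%), 2 an E-box (6.3%), 4 an ETS motif (3.4%) and none a TATA box (10.7%). The 4 with an ETS motif were SIRT3, HAT1, KAT5 and KAT7, and the 2 with an E-box were SIRT1 and KAT5. Median G and C content was 68.2% in member windows and 58.0% in all windows. The values over all windows count every entry of a gene, whereas each member was counted by its first entry only. In the GENCODE annotation KAT5 and HDAC11 start before the windows shown, at chr11:65711996 and chr3:13479724, so these windows lie within the annotated genes. A match of letters is a description and not a binding site.

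The test was the quasi-likelihood test of edgeR in 1 fit of all 18 libraries, with Benjamini-Hochberg adjustment over 16994 genes, and a gene was called at an adjusted p under 0.05. Values per library are in CPM and in the order of the replicate numbers, and changes are log2 fold changes with their standard error (SE).

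**Figure D1:**
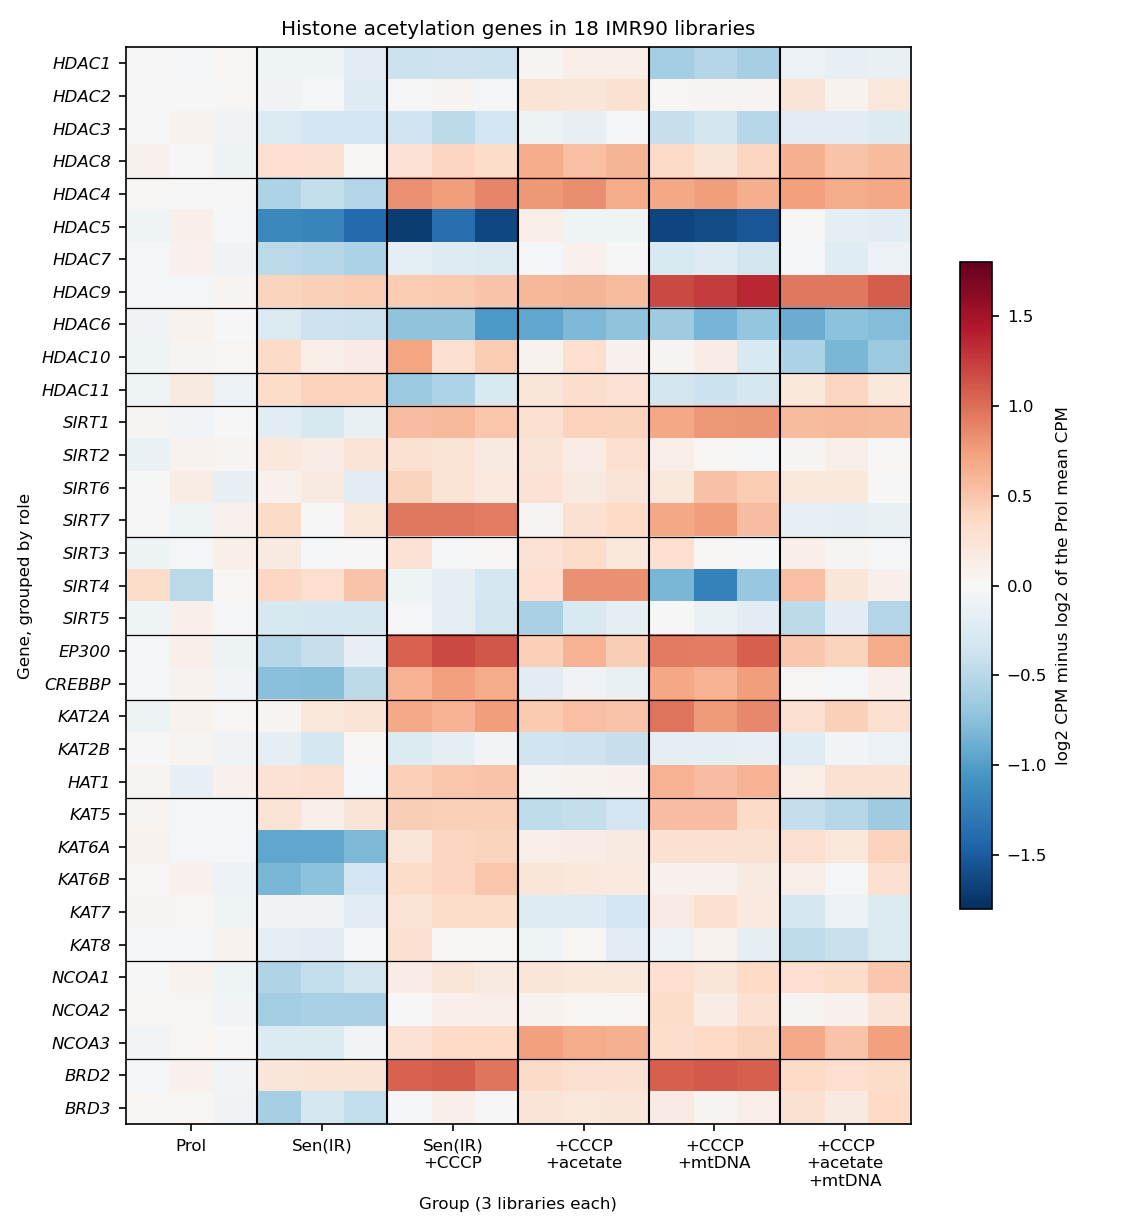
Each row is 1 of the 33 genes, grouped by role, and each column 1 of 18 libraries; colour gives log2 CPM minus the log2 of the Prol mean, from blue (lower) to red (higher). HDAC5 is low in the irradiated groups without acetate and near the Prol level in both acetate groups, while EP300, CREBBP and BRD2 are highest in Sen(IR)+CCCP and Sen(IR)+CCCP+mtDNA.

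The first comparison asked how irradiation senescence altered these genes. In Sen(IR) relative to Prol, 16 of the 33 fell and 7 rose, against a background of 29.9% of all genes tested called lower and 26.7% called higher. The median change of the set was -0.129 and that of all genes -0.0105. With library totals in place of TMM the split was 10 higher and 12 lower. Falls of more than 0.5 on the log2 scale were seen in HDAC5, KAT6A, CREBBP, KAT6B, NCOA2, HDAC7 and HDAC4.

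HDAC5, a class IIa deacetylase that shuttles between nucleus and cytoplasm, fell the most. Its levels were 32.25, 36.18 and 33.58 CPM in Prol and 15.25, 14.88 and 12.91 CPM in Sen(IR). The groups were far apart, at a log2 change of -1.24 (SE 0.0881, adjusted p = 9e-11). Its class IIa relatives HDAC4 (12.27, 12.06 and 12.02 CPM in Prol, 8.259, 9.012 and 8.399 in Sen(IR)) and HDAC7 also fell, by 0.51 (SE 0.0709, adjusted p = 2.67e-06) and by 0.52 (SE 0.0568, adjusted p = 6.66e-08) on the log2 scale. The class IIa member HDAC9 went the other way, with a log2 change of 0.43 (SE 0.0551, adjusted p = 7.38e-07), from 24.23, 24.01 and 25.58 CPM to 32.64, 33.25 and 33.87. Among class I enzymes HDAC3, the catalytic subunit of nuclear receptor corepressor complexes, fell by 0.31, HDAC1 fell by 0.12 and HDAC8 rose by 0.22. HDAC6, the cytoplasmic tubulin deacetylase, fell by 0.33, and HDAC11, the sole class IV enzyme, rose by 0.39.

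Of the sirtuins, SIRT1, a nuclear deacetylase of histones and transcription factors, fell by 0.21, the mitochondrial desuccinylase SIRT5 fell by 0.30 and the mainly cytoplasmic SIRT2 rose by 0.18. SIRT3, SIRT4, SIRT6 and SIRT7 were not called. With library totals no sirtuin was called lower and 2 were called higher. Of the writers, KAT6A, a MYST acetyltransferase that modifies histone H3, fell from 77.04, 72.33 and 72.82 CPM to 38.57, 38.73 and 42.23, a log2 change of -0.89 (SE 0.0582, adjusted p = 2.15e-11). Its paralog KAT6B fell from 56.87, 58.79 and 51.94 to 31.51, 33.48 and 43.96 CPM, by 0.62 (SE 0.0922, adjusted p = 5.45e-06). Library 3 of Sen(IR) was the highest of its group for KAT6A, KAT6B, EP300 and CREBBP, and stayed below every Prol library for each. CREBBP, the CBP coactivator that acetylates histones H3 and H4, fell by 0.66 (SE 0.066, adjusted p = 2e-08), from 55.39, 59.2 and 54.67 to 33.64, 33.1 and 40.44 CPM. EP300, which encodes p300, fell by less, 0.35 (SE 0.0839, adjusted p = 0.0012), from 65.51, 70.89 and 62.28 to 46.55, 49.7 and 59.82 CPM. HAT1, which acetylates newly made histone H4, rose by 0.18, and KAT5 (TIP60), the catalytic subunit of the NuA4 complex, by 0.20. All 3 p160 coactivators, which bring acetyltransferases to nuclear receptors, fell, NCOA2 by 0.60 (SE 0.0575, adjusted p = 1.02e-08), NCOA1 by 0.44 and NCOA3 by 0.17. With library totals 2 of these 3 were called lower. BRD2 rose by 0.24 and BRD3 fell by 0.45.

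The remaining members HDAC2, HDAC10, KAT2A, KAT2B, KAT7 and KAT8 were not called. Of the smaller calls, 7 depended on single libraries. HAT1 lost its call without library 1 or 2 of either group (adjusted p up to 0.279), KAT5 without any Prol library or Sen(IR) 1 or 3 (up to 0.114), SIRT2 without Prol 1 or Sen(IR) 3 (up to 0.209), and HDAC8 without Prol 3 or Sen(IR) 1 or 2 (up to 0.113). HDAC1 lost its call without library 3 of either group (adjusted p up to 0.116), NCOA3 without Prol 2 or Sen(IR) 1 (up to 0.0782), and SIRT5 without Prol 2 (0.069). Without Prol 1 the number of members called higher was 4 instead of 7.

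**Figure D2:**
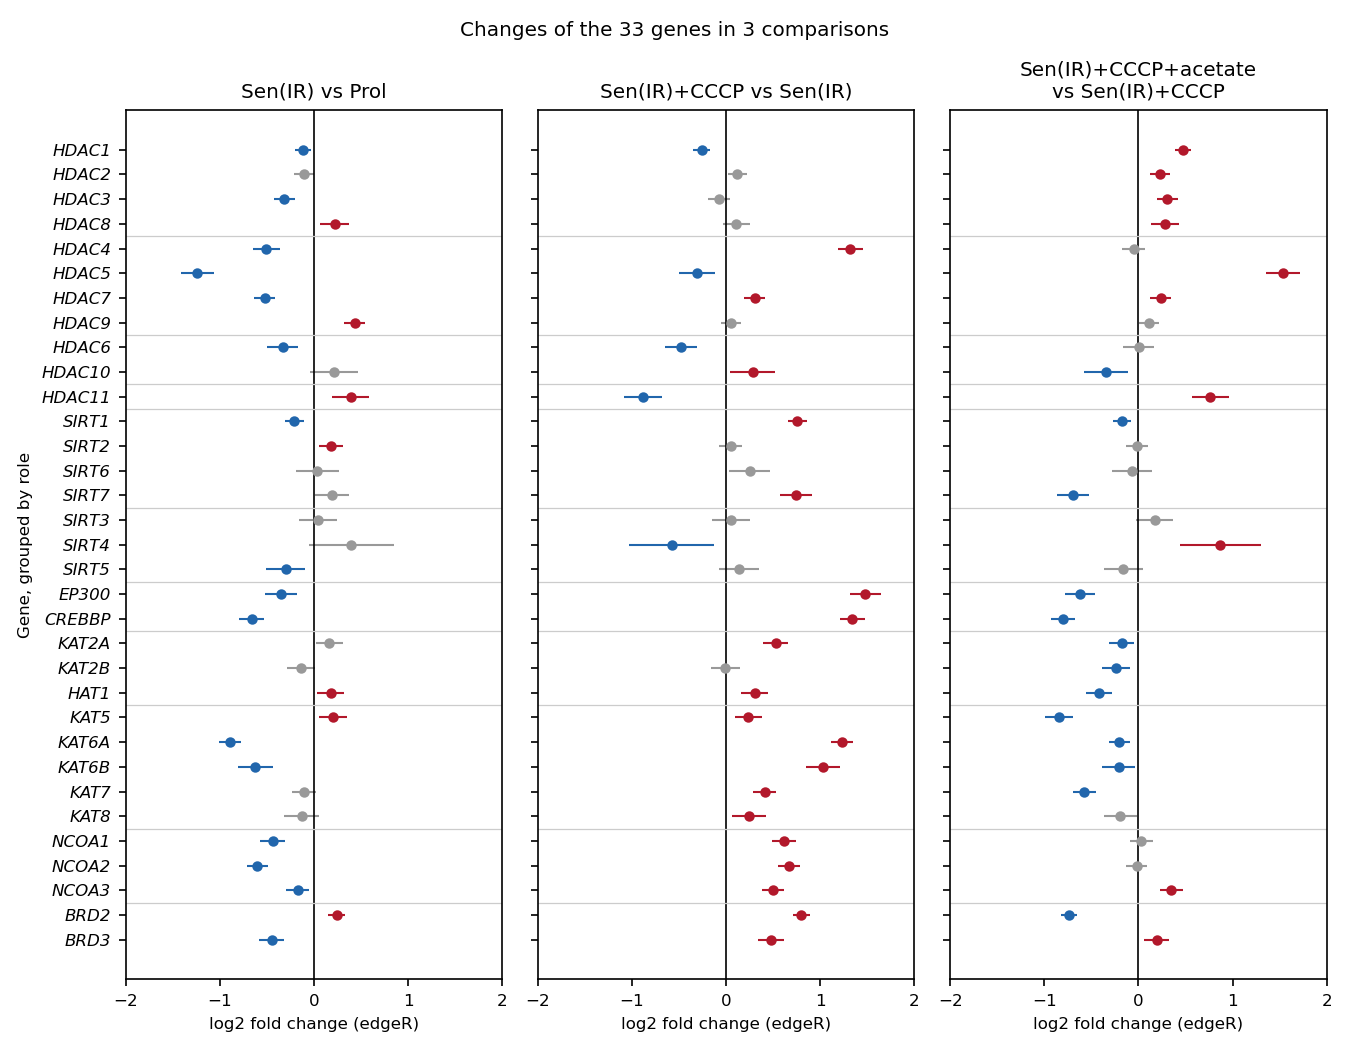
Log2 fold change of each of the 33 genes in 3 comparisons, with bars of 2 standard errors; colour marks the call at the 0.05 threshold, red for higher, blue for lower and grey for none. HDAC5 lies at -1.24 in the left panel and at 1.54 in the right, and EP300 moves from -0.35 to 1.48 to -0.62 across the panels.

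The second comparison was of Sen(IR)+CCCP with Sen(IR). Exposure to CCCP and the loss of mitochondria cannot be told apart in it. MKI67 rose as well, with a log2 change of 0.997 (adjusted p = 9.4e-08), and its part in these changes was not tested. Among the members 19 rose and 5 fell, against 34% of all genes called higher and 31.3% called lower. The median change was 0.281 against 0.0264 for all genes. Of the 10 acetyltransferases 9 rose, as did all 3 p160 coactivators and both BET genes, a direction that held for each of these genes with library totals and with TPM. The count of erasers depended on the scaling: on the TMM scale 3 zinc-dependent HDACs and 2 sirtuins were higher and 4 HDACs and 1 sirtuin lower, with library totals 7 HDACs and 6 sirtuins were higher and 2 HDACs and no sirtuin lower, and on TPM the change was positive for 9 of 11 HDACs and 6 of 7 sirtuins. Library totals shifted the median of all genes in this comparison to 0.286 and TPM shifted it to 0.454, and the split of member calls with library totals was 28 higher and 2 lower. Relative to the median of all genes, 26 of the 33 members lay above it on the TMM scale and on TPM alike.

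Among the writers, EP300 was 138.7, 151.4 and 143.8 CPM in Sen(IR)+CCCP, which is 2.79-fold the Sen(IR) level and above every Prol library (log2 change 1.48, SE 0.0833, adjusted p = 9.26e-13). CREBBP reached 86.91, 94.42 and 89.51 CPM, 2.53-fold higher than in Sen(IR) (log2 change 1.34, SE 0.0653, adjusted p = 8.78e-14). KAT6A reached 86.41, 96.79 and 97.67 CPM (2.35-fold, log2 change 1.23, SE 0.0578, adjusted p = 4.84e-14). KAT6B reached 70.06, 73.18 and 78.67 CPM (2.04-fold, log2 change 1.03, SE 0.0913, adjusted p = 1.58e-09). These 4 had all fallen after irradiation, and in each of them every Sen(IR)+CCCP library lay above every Prol library. KAT2A (GCN5), the acetyltransferase of the SAGA and ATAC complexes, rose by 0.53 (SE 0.0679, adjusted p = 5.31e-07), while its paralog KAT2B (PCAF) had a change of -0.01 (adjusted p = 0.936). Smaller rises were seen in KAT7 (HBO1), an H3K14 writer, by 0.41, in HAT1 by 0.30, in KAT8 (MOF), the H4K16 writer, by 0.24, and in KAT5 by 0.24. The KAT5 levels were 13.8, 13.06 and 13.22 CPM in Prol, 15.81, 14.34 and 15.7 in Sen(IR) and 18.19, 17.97 and 17.95 in Sen(IR)+CCCP.

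The p160 coactivators rose by similar amounts, NCOA2 by 0.67 (SE 0.0572, adjusted p = 9.47e-10), NCOA1 by 0.62 (SE 0.0633, adjusted p = 1.63e-08) and NCOA3 by 0.50 (SE 0.0598, adjusted p = 1.76e-07). BRD2 rose from 162.2, 165.2 and 165.1 to 290.1, 295 and 272 CPM (log2 change 0.80, SE 0.0437, adjusted p = 5.7e-13), and BRD3 by 0.48. The BRD2 groups did not overlap.

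Among the erasers, HDAC4 rose to 21.34, 20.36 and 22.2 CPM (2.49-fold, log2 change 1.32, SE 0.0675, adjusted p = 1.96e-13), above its Prol level. SIRT1 rose by 0.75 (SE 0.0511, adjusted p = 1.91e-11). SIRT7, the nucleolar H3K18 deacetylase, rose from 15.06, 11.85 and 13.42 to 22.73, 22.89 and 22.27 CPM (log2 change 0.74, SE 0.085, adjusted p = 8.85e-08). HDAC7 rose by 0.30, and HDAC10, which deacetylates polyamines, by 0.28. HDAC11 fell from 9.432, 9.971 and 9.913 to 4.708, 5.097 and 6.202 CPM, below its Prol libraries too (7.075, 8.361 and 6.96), a log2 change of -0.88 (SE 0.101, adjusted p = 8.58e-08). HDAC6 fell by 0.48, HDAC1 by 0.26, and HDAC5 by 0.31 to 10.42, 13.32 and 10.92 CPM. The calls of HDAC1 and HDAC5 were lost with library totals, their changes on TPM were 0.169 and 0.11, and that of HDAC6 on TPM was -0.0613. SIRT4, a mitochondrial sirtuin close to the detection limit, was 1.368, 0.7769 and 1.117 CPM in Prol, 1.408, 1.342 and 1.549 in Sen(IR) and 1.031, 0.9589 and 0.8705 in Sen(IR)+CCCP (log2 change -0.58, SE 0.226, adjusted p = 0.0289). Its call was lost with library totals, without the filter on low counts and with DESeq2's Wald test.

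HDAC2, HDAC3, HDAC8, HDAC9, SIRT2, SIRT3, SIRT5 and SIRT6 were not called. Leaving out 1 library removed the SIRT4 call (Sen(IR) 1 or 3, Sen(IR)+CCCP 2 or 3, adjusted p up to 0.0779), the HDAC10 call (Sen(IR) 2 or 3, Sen(IR)+CCCP 1 or 3, up to 0.296), the KAT8 call (Sen(IR) 1 or 2, Sen(IR)+CCCP 1, up to 0.185) and the HDAC5 call (Sen(IR)+CCCP 1, 0.0511).

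The change after CCCP was also set against the exonic length of each gene, since the members are long: 17 of the 33 lay in the upper quartile of exonic length, from 7597 bp. Over the members Spearman's rho between length and change was 0.38 and over all genes with a length 0.0505, as a description over genes that share the same libraries. Of the 17 long members 11 rose and 2 fell, and of the other 16, 8 rose and 3 fell. Of all genes in that quartile 42.4% were called higher and 32% lower. In Sen(IR) against Prol rho was -0.393 over the members and -0.14 over all genes. There 12 of the 17 long members were lower and 3 higher, beside 44.6% and 22.2% of all genes in that quartile.

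**Figure D3:**
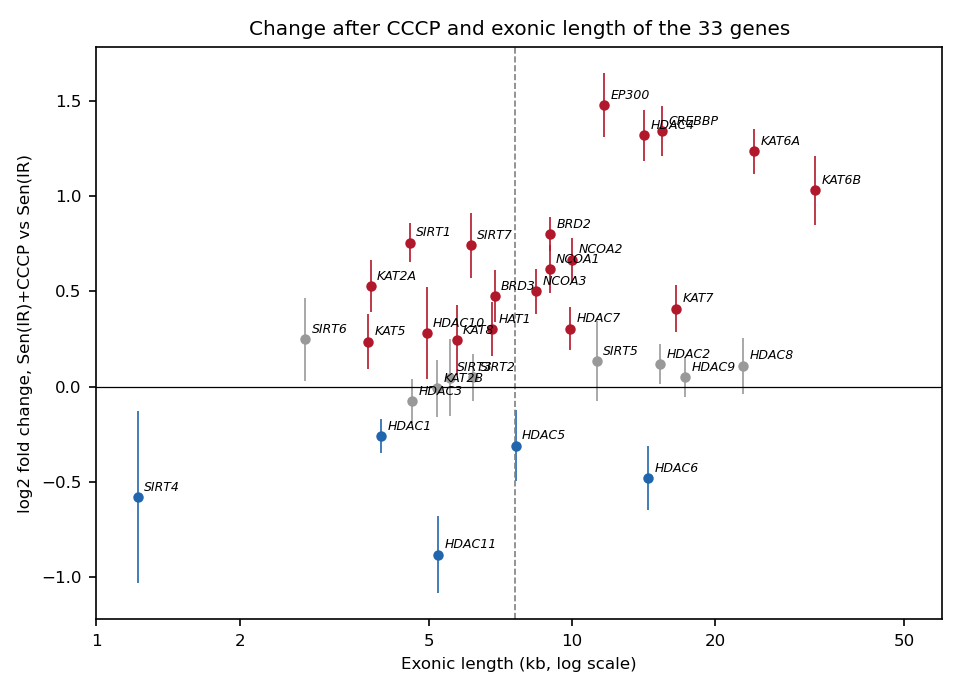
Log2 fold change of each gene in Sen(IR)+CCCP relative to Sen(IR), with bars of 2 standard errors, against exonic length in kb on a log axis; the dashed line at 7.6 kb marks the start of the upper quartile of all genes. To the right of the line 11 of the 17 genes are called higher (red), and to its left 8 of the 16.

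Acetate given to cells without mitochondria was the third comparison. Relative to Sen(IR)+CCCP, 10 members rose (background 28.8%) and 13 fell (28.3%), with a median of -0.0515 against 0.00539 for all genes; library totals gave 7 and 17. Of the 11 zinc-dependent HDACs 7 rose and HDAC10 fell, whereas 9 of the 10 acetyltransferases fell and none rose. With library totals the HDAC split was 5 higher and 2 lower and that of the acetyltransferases 0 and 10. All 4 class I HDACs were among those that rose on the TMM scale, and with library totals the calls of HDAC2 and HDAC7 were lost. The same genes were tested for acetate a second time in the cells given mtDNA (Sen(IR)+CCCP+Acetate+mtDNA against Sen(IR)+CCCP+mtDNA), a comparison that shares no library with the first. There 10 members rose (27.4%) and 14 fell (29.9%), or 5 and 15 with library totals. The same direction was called both times in 20 members, 10 higher and 10 lower, and opposite directions in none, where 47.1% of all genes were called the same way both times. Pearson's r between the 2 sets of changes was 0.946 over the 33 members and 0.843 over all genes, as a description.

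**Figure D4:**
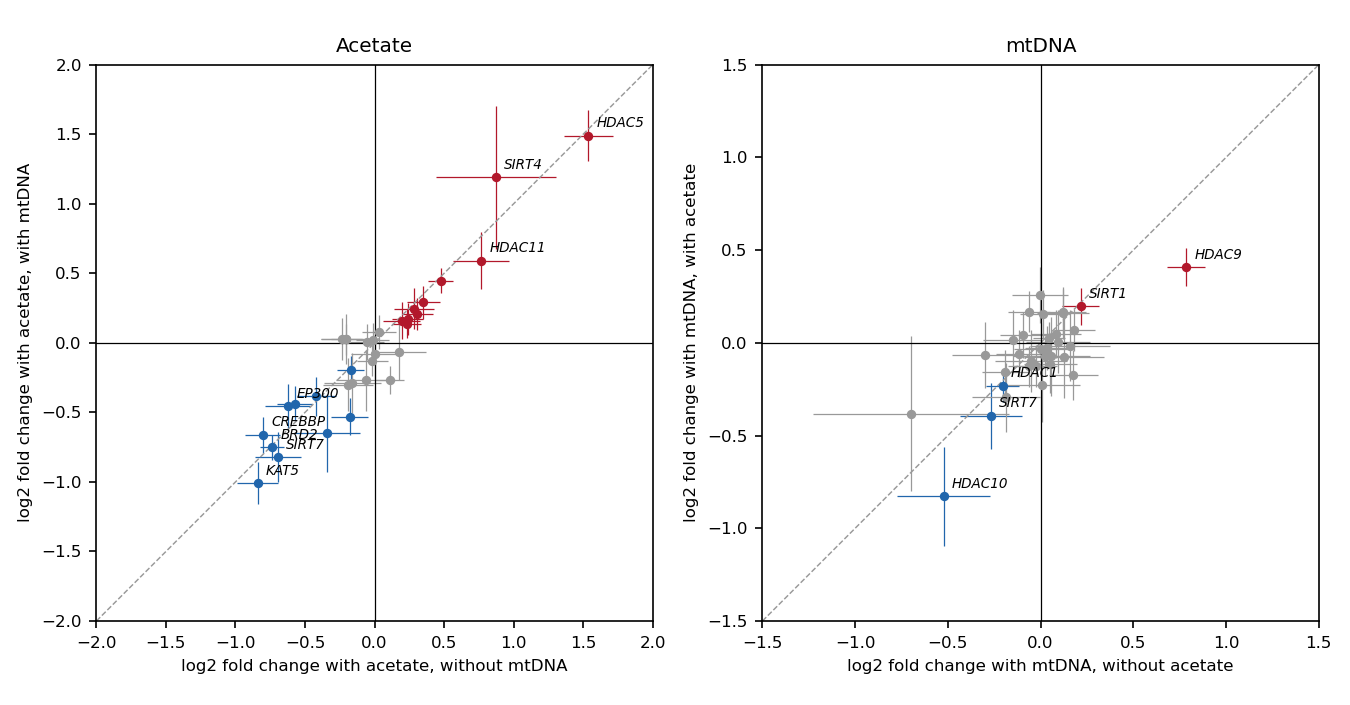
Log2 fold change of the 33 genes with acetate (left panel) and with mtDNA (right panel), measured without the other agent on the x axis and in its presence on the y axis, with bars of 2 standard errors; red and blue points were called the same way both times and the line marks equal change. With acetate 20 genes are coloured and HDAC5 lies at 1.54 and 1.49, and with mtDNA 5 genes are coloured and HDAC9 lies at 0.78 and 0.41.

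HDAC5 rose the most, from 10.42, 13.32 and 10.92 to 36.93, 32.28 and 32.11 CPM, close to the Prol range of 32.25 to 36.18 (2.90-fold, log2 change 1.54, SE 0.0886, adjusted p = 2.46e-12). With mtDNA present it went from 10.8, 11.09 and 11.68 to 34.03, 30.39 and 29.85 CPM (log2 change 1.49, SE 0.0916, adjusted p = 7.89e-12). Every library with acetate was thus above every CCCP library without it. HDAC11 rose to 8.705, 9.291 and 8.977 CPM (log2 change 0.77, SE 0.0995, adjusted p = 8.92e-07) and, with mtDNA, from 5.96, 5.709 and 6.068 to 8.548, 9.747 and 8.538 (log2 change 0.59, SE 0.103, adjusted p = 3.89e-05).

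The class I enzymes rose by less. HDAC1 went from 89.09, 89.98 and 89.15 to 120, 126 and 126.5 CPM (log2 change 0.47, SE 0.0442, adjusted p = 6.25e-09) and, with mtDNA, from 76.22, 80.1 and 76.56 to 107.5, 104.5 and 105.5 (log2 change 0.45, SE 0.0449, adjusted p = 2.06e-08). HDAC2, the partner of HDAC1 in the same complexes, rose by 0.23 and 0.14 in the 2 comparisons, HDAC3 by 0.31 and 0.21, and HDAC8, a class I enzyme known for deacetylating cohesin, by 0.28 and 0.25. HDAC7 rose by 0.24 and 0.17. With library totals the calls of HDAC2, HDAC3, HDAC7 and HDAC8 in the cells with mtDNA were lost, and the HDAC split there was 3 higher and 2 lower. HDAC10 fell by 0.34 and by 0.65 (SE 0.139, adjusted p = 0.000404 for the latter), and HDAC9 fell by 0.27 in the cells with mtDNA only, and HDAC4 and HDAC6 were not called in either comparison.

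SIRT7 fell to 12.23, 14.29 and 15.19 CPM with acetate (log2 change -0.70, SE 0.0833, adjusted p = 2.78e-07) and, with mtDNA, from 19.22, 19.85 and 17.4 to 10.67, 10.48 and 10.78 (log2 change -0.82, SE 0.0895, adjusted p = 7.1e-08). Libraries with acetate alone overlapped the Sen(IR) range, and those with both agents lay below every Prol and Sen(IR) library. SIRT1 fell by 0.17 and 0.19. SIRT4 rose to 1.347, 1.915 and 1.93 CPM (log2 change 0.87, SE 0.215, adjusted p = 0.00146) and, with mtDNA, from 0.6141, 0.4668 and 0.6778 to 1.579, 1.27 and 1.155 (log2 change 1.19, SE 0.256, adjusted p = 0.000412). SIRT5 and SIRT6, the latter a chromatin-bound H3K9 deacetylase, fell in the cells with mtDNA, by 0.29 and 0.27, and SIRT2 and SIRT3 were not called in either.

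Among the writers KAT5 fell the most, to 9.706, 9.929 and 10.53 CPM (log2 change -0.84, SE 0.0734, adjusted p = 2.28e-09) and, with mtDNA, from 19.62, 19.68 and 16.91 to 9.882, 9.379 and 8.608 (log2 change -1.01, SE 0.0768, adjusted p = 2.76e-10). All 6 libraries with acetate were below the lowest Prol library. CREBBP fell to 49.64, 54.05 and 51.39 CPM (log2 change -0.80, SE 0.0632, adjusted p = 4.2e-10) and, with mtDNA, from 91.07, 86.92 and 95.28 to 57.39, 55.37 and 60.01 (log2 change -0.66, SE 0.0638, adjusted p = 1.11e-08). EP300 fell to 89.57, 102.1 and 89.9 CPM (log2 change -0.62, SE 0.0804, adjusted p = 7.88e-07) and, with mtDNA, from 127, 125.1 and 139 to 92.53, 87.15 and 105.2 (log2 change -0.46, SE 0.0811, adjusted p = 5.09e-05). With acetate EP300 thus stayed above all Prol libraries, whereas CREBBP lay just below the Prol range with acetate alone and overlapped it with both agents.

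KAT7 fell by 0.58 (SE 0.0614, adjusted p = 4.98e-08) and, with mtDNA, by 0.44, HAT1 by 0.42 and 0.38, and KAT2A by 0.18 and 0.53 (SE 0.0678, adjusted p = 7.1e-07 for the latter). KAT6A (79.34, 81.41 and 83.04 CPM with acetate), KAT6B (64.8, 64.02 and 63.28 CPM) and KAT2B fell by 0.20, 0.21 and 0.23 with acetate alone and were not called in the cells with mtDNA. KAT6A was 89.41, 89.54 and 89.92 CPM with mtDNA and 90.27, 85.27 and 98.36 with both, and KAT6B was 58.92, 58.77 and 62.29 with mtDNA and 60.3, 54.72 and 68.2 with both. KAT8 was called in the cells with mtDNA, where it fell by 0.30, and had an adjusted p of 0.0731 with acetate alone.

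Of the readers, BRD2 fell from 290.1, 295 and 272 to 176.4, 169.9 and 168.7 CPM (log2 change -0.74, SE 0.0435, adjusted p = 3.84e-12) and, with mtDNA, from 291.6, 299.3 and 292.8 to 177.8, 172 and 175 (log2 change -0.75, SE 0.0437, adjusted p = 3.19e-12). This placed the 6 acetate libraries just above the Sen(IR) libraries. BRD3 moved the other way, by 0.19 and 0.16, and neither of these calls was kept with library totals. NCOA3, the p160 coactivator also known as AIB1, rose by 0.35 and 0.29, and NCOA1 and NCOA2 were not called in either comparison.

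Calls in the acetate comparison that were lost without 1 library were those of KAT6B (any of the 6 libraries, adjusted p up to 0.25), KAT2A (Sen(IR)+CCCP 1 or 3 or any acetate library, up to 0.173), HDAC10 (Sen(IR)+CCCP 1, acetate 1 or 3, up to 0.205), KAT2B (library 3 of either group, up to 0.104) and SIRT1 (Sen(IR)+CCCP 2, acetate 1, up to 0.0879). In the cells with mtDNA they were those of SIRT6, SIRT5, BRD3, HDAC2, KAT8 and HDAC7, with adjusted p up to 0.214, 0.141, 0.143, 0.0927, 0.0895 and 0.0677, and library 1 of Sen(IR)+CCCP+Acetate+mtDNA was among the decisive libraries for each. Without library 2 of the combination, which stood apart, the latter comparison gave 10 members higher and 13 lower. MKI67 moved with acetate as well, with a log2 change of -3.23 alone and -2.48 with mtDNA present, and its part in these changes was not tested.

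**Figure D5:**
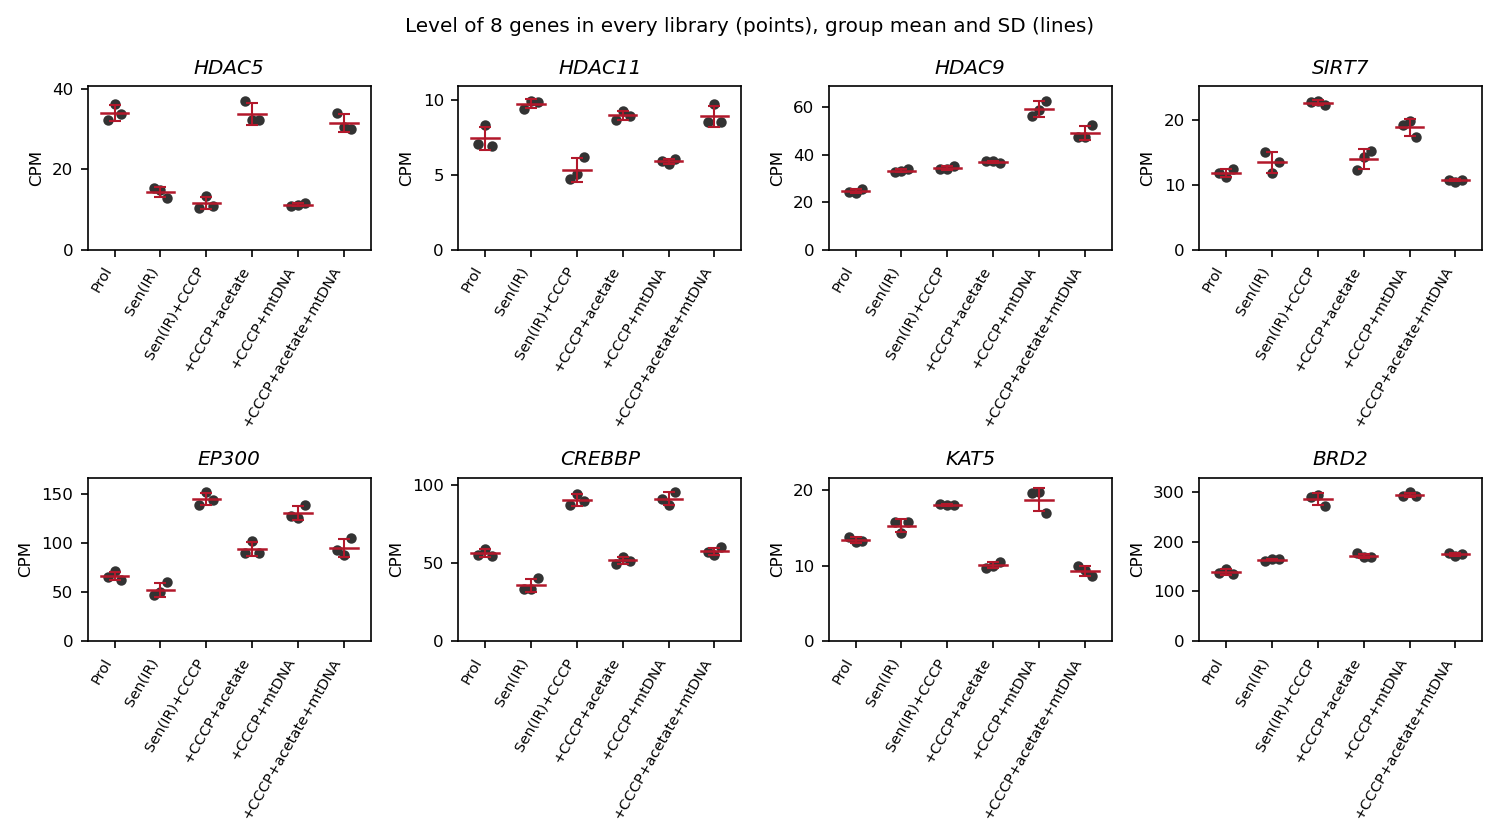
CPM of 8 genes in every library (points), with group mean and SD (lines), in the 6 groups; each axis starts at 0. HDAC5 and HDAC11 are higher and SIRT7, EP300, CREBBP, KAT5 and BRD2 lower in both acetate groups than in the matching groups without acetate, and HDAC9 is highest with mtDNA, at 56.24 to 62.78 CPM.

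Fewer members were called with transfected mtDNA than with acetate. Per the study's methods acetate was given repeatedly, whereas mtDNA was transfected late in the culture, so the exposures were not matched. Those methods name no mock-transfected cells, and the part of the transfection itself was not tested. In Sen(IR)+CCCP+mtDNA against Sen(IR)+CCCP 3 rose (background 10.7%) and 5 fell (7.4%), or 1 and 8 with library totals. In the presence of acetate (Sen(IR)+CCCP+Acetate+mtDNA against Sen(IR)+CCCP+Acetate) 3 rose (6.57%) and 4 fell (6%), or 1 and 8 with library totals. The same call was made both times in 5 members, against 7.68% of all genes: HDAC9 and SIRT1 rose, and HDAC1, HDAC10 and SIRT7 fell. With library totals the rise of SIRT1 was not called in either comparison.

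HDAC9 rose from 33.85, 34.22 and 35.22 to 56.24, 58.74 and 62.78 CPM (log2 change 0.78, SE 0.0524, adjusted p = 5.34e-10). In the presence of acetate it rose from 37.2, 37.56 and 36.62 to 47.7, 47.55 and 52.63 CPM (log2 change 0.41, SE 0.0521, adjusted p = 1.62e-05). No library of one group reached the other in either comparison. The rise with mtDNA was smaller in the presence of acetate: the interaction of the 2 agents was -0.38 on the log2 scale (SE 0.0738, adjusted p = 0.0156). HDAC9 was the only member called in the interaction, where 0.0765% of all genes were called higher and 0.583% lower. Without library 3 of Sen(IR)+CCCP+mtDNA its adjusted p was 0.0533, and without library 2 of the combination KAT2A was called as well. The members HDAC9, KAT2A, KAT2B and KAT6A, 4 in all, had an unadjusted interaction p under 0.05.

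HDAC10, of whose exonic bases 55.8% also belong to MAPK12, was the other HDAC with a larger response. It was 5.238, 5.735 and 5.61 CPM in Prol, 7.015, 5.983 and 6.127 in Sen(IR), 9.054, 6.737 and 7.616 in Sen(IR)+CCCP and 5.708, 6.068 and 4.551 with mtDNA (log2 change -0.52, SE 0.125, adjusted p = 0.00512). In the presence of acetate it fell from 5.769, 6.803 and 5.81 to 3.73, 3.113 and 3.464 CPM (log2 change -0.83, SE 0.133, adjusted p = 0.000231), so that the combination held the lowest 3 libraries of all. HDAC1 fell by 0.20 and 0.23 in the 2 comparisons, SIRT7 by 0.27 and 0.39, and SIRT1 rose by 0.22 and 0.20. NCOA2 rose by 0.18 and SIRT2 and KAT6B fell by 0.19 and 0.30 with mtDNA alone, and KAT2B rose by 0.26 and KAT8 fell by 0.29 with mtDNA in the presence of acetate.

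The calls with mtDNA alone of HDAC10 (without Sen(IR)+CCCP 1 or mtDNA 3, adjusted p up to 0.0572), SIRT7 (up to 0.176), SIRT2 (up to 0.189), KAT6B (up to 0.111) and NCOA2 (up to 0.116) were lost without 1 library, and the count of members called lower was 2 without Sen(IR)+CCCP 1 or 2 or mtDNA 3. Without Sen(IR)+CCCP 1 or mtDNA 3, 3 members were called the same way in both comparisons. In the presence of acetate those of KAT2B (up to 0.0988), KAT8 (up to 0.194) and SIRT1 (0.0626 without acetate 1) were lost. HDAC9 and HDAC1 kept their calls in both comparisons without any 1 library.

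Both agents together were compared with untreated Sen(IR)+CCCP cells, the same 3 control libraries as in the single-agent comparisons. Of the members 10 rose (background 30.3%) and 12 fell (31.4%), or 3 and 17 with library totals, which shifted the median of all genes to -0.213. HDAC5 (log2 change 1.44, SE 0.0898), HDAC11 (0.75, SE 0.102) and HDAC9 (0.52, SE 0.0527) rose, and HDAC10 fell by 1.17 (SE 0.132, adjusted p = 9.92e-08) and SIRT7 by 1.09 (SE 0.0877, adjusted p = 5.17e-10). HDAC10 and SIRT7 were thus at less than 50% of the Sen(IR)+CCCP level, with folds of 0.444 and 0.471. Among writers and readers KAT5 fell by 0.95 (SE 0.0762), BRD2 by 0.71 (SE 0.0437), CREBBP by 0.65 (SE 0.0635), EP300 by 0.61 (SE 0.0808), KAT7 by 0.53 (SE 0.0623) and KAT8 by 0.49 (SE 0.0936). Of the smaller changes, HDAC1, HDAC2, HDAC3, HDAC8, NCOA1, NCOA3 and BRD3 rose by 0.16 to 0.32, and SIRT2, KAT2A, HAT1 and KAT6B fell by 0.17 to 0.35. These rises depended on the scaling. Of the zinc-dependent HDACs 7 were higher on the TMM scale and 3 with library totals, where no p160 coactivator and no BET reader was called higher. The SIRT2 and KAT6B calls were lost without 1 library (adjusted p up to 0.147 and 0.0855). Without library 2 of the combination 11 members rose and 12 fell.

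Cells without mitochondria but with acetate were also set against Sen(IR) cells that kept their mitochondria. Here 18 members were higher (background 33.2%) and 4 lower (32.7%), or 22 and 2 with library totals, which shifted the median of all genes to 0.14, and TPM shifted it to 0.332. Above Sen(IR) were HDAC4 by 1.27 (SE 0.0671; 20.76, 21.66 and 19.19 CPM with acetate), HDAC5 by 1.23 (SE 0.0872), KAT6A by 1.03 (SE 0.0577), EP300 by 0.85, NCOA3 by 0.85, KAT6B by 0.82, BRD3 by 0.67, NCOA1 and NCOA2 by 0.65 each, SIRT1 by 0.58, HDAC7 and CREBBP by 0.54 each. All 4 class I HDACs were higher as well, by 0.21 to 0.39, as were KAT2A by 0.35 and HDAC9 by 0.16. KAT5 was lower, with a log2 difference of -0.60 (SE 0.0745, adjusted p = 2.7e-07), as were HDAC6 at -0.48, KAT2B at -0.24 and KAT7 at -0.17. The last 2 were not lower on TPM, KAT2B lost its call without library 3 of either group (adjusted p up to 0.0743) and KAT7 without Sen(IR) 1 or 2 or any acetate library (adjusted p up to 0.222), and without acetate 3 the count of members lower was 2. HDAC4 was 19.54, 20.36 and 19.08 CPM with mtDNA and 20.2, 19.29 and 19.63 with both, so all 12 CCCP libraries lay above all Prol and Sen(IR) libraries.

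The partners of these enzymes were followed with 3 lists: subunits of HDAC complexes (34 of 35 genes in the table, all tested), subunits of acetyltransferase complexes (44 of 45, all tested) and other proteins with acetyl-lysine binding domains (33 of 35 tested). In Sen(IR) against Prol 3 rose and 21 fell in the first list, 4 and 20 in the second and 2 and 21 in the third, where 26.7% of all genes rose and 29.9% fell. After CCCP 20 rose and 5 fell, 29 and 4, and 22 and 5, with medians of 0.215, 0.336 and 0.372, beside 34% and 31.3% of all genes. With acetate 16 HDAC complex subunits rose and 5 fell (median 0.0776), 13 acetyltransferase complex subunits rose and 19 fell (-0.113), and 9 readers rose and 20 fell (-0.207), beside 28.8% and 28.3% of all genes. With mtDNA the counts were 5 and 2, 4 and 3, and 7 and 5, that is 14.7% and 5.88%, 9.09% and 6.82%, and 21.2% and 15.2% of each list against 10.7% and 7.4% of all genes.

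In the HDAC complex list RCOR2, a CoREST scaffold, fell after irradiation (log2 change -1.17) and rose with acetate (1.73). MBD3, a NuRD subunit, rose after CCCP by 1.19 and fell with acetate by 0.49. TRERF1 rose after CCCP by 0.82 and fell with mtDNA by 0.18, MTA3 and HMG20B fell after CCCP by 0.76 and 0.52, and CHD3, a NuRD helicase, fell with acetate by 0.47. SAP18 and BRMS1 rose after irradiation by 0.33 and 0.27. With mtDNA GATAD2A and SIN3A, the SIN3 scaffold, rose by 0.24 and 0.22 and GPS2 fell by 0.31.

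In the acetyltransferase complex list EPC2, an enhancer of polycomb protein of the NuA4 complex, rose after CCCP by 1.48 and fell with acetate by 1.09, as its paralog EPC1 did with acetate by 1.18. JADE2, a scaffold of HBO1 complexes, rose after irradiation by 0.27, after CCCP by 1.19 and with mtDNA by 0.37, whereas JADE1 fell after irradiation by 1.05. TRRAP, the large scaffold of SAGA and NuA4, fell after irradiation by 0.87, and KAT14 rose by 0.49. ING4 fell after CCCP by 1.17 and rose with acetate by 0.45. MORF4L2 fell after CCCP by 0.57, and SUPT3H rose with acetate by 0.55. With mtDNA YEATS2 rose by 0.38, DMAP1 fell by 0.71 and ING5 by 0.21.

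Among the other readers ATAD2, a bromodomain ATPase linked to DNA replication, fell after irradiation by 0.61, rose after CCCP by 1.27 and fell with acetate by 1.61. BRWD3 fell after irradiation by 1.06 and rose with acetate by 1.03, beside its paralog BRWD1 (0.81), and DPF3, a BAF complex subunit, fell with acetate by 1.45. SP110 and SP100 are interferon-inducible genes of nuclear bodies. SP110 fell after CCCP by 1.36 and rose with mtDNA by 2.70, and SP100 fell by 0.58 and rose by 1.62. SP140 rose after CCCP by 1.63. SP140L and DPF2 rose after irradiation by 0.31 and 0.27, and BRD8 and DPF1 fell with mtDNA by 0.30 and 0.42.

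Some members share exonic bases with a neighbouring gene. The study's methods state that counting respected strand where libraries were strand-specific, but whether these libraries were is not given in the sources used here. Of the exonic bases of HDAC10 (chr22:50245183-50251405) 55.8% also belonged to MAPK12 on the same strand, of KAT5 38.6% to RNASEH2C on the opposite strand, of HDAC5 (chr17:44076746-44123702) 24% to G6PC3, of BRD3 18.6% to BRD3OS, of HDAC7 11.2% to SLC48A1 and other genes, and of KAT2A 10.7% to an unnamed gene. Positions are from GENCODE on GRCh38. G6PC3 rose after irradiation by 0.62, where HDAC5 fell, fell after CCCP by 1.14 (adjusted p = 3.5e-09), where HDAC5 fell by 0.31, and changed by 0.09 with acetate (adjusted p = 0.482), where HDAC5 rose by 1.54. RNASEH2C changed by -0.01 with acetate (adjusted p = 0.955) and by -0.18 with acetate in cells with mtDNA (adjusted p = 0.105), but fell by 0.51 with both agents (adjusted p = 3.02e-05), where KAT5 fell by 0.95, and by 0.34 with mtDNA alone, where KAT5 was not called. MAPK12 fell in the mtDNA comparisons where HDAC10 fell, by 0.33 with mtDNA alone and by 0.41 in the presence of acetate. With both agents against Sen(IR)+CCCP MAPK12 fell by 0.444 (adjusted p = 3.97e-05), where HDAC10 fell by 1.17. After CCCP MAPK12 fell by 0.425, where HDAC10 rose by 0.28. With acetate MAPK12 was not called, alone or in cells with mtDNA, where HDAC10 fell by 0.34 and 0.65. With 55.8% of its exonic bases shared, the values of HDAC10 are uncertain, and the part of MAPK12 in them was not tested. SLC48A1 rose with acetate by 0.78 and BRD3OS by 0.25, beside the smaller rises of HDAC7 and BRD3.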

How the data were processed

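Poly(A) RNA of 18 IMR90 libraries was extracted with the RNeasy mini plus kit and sequenced as paired reads. Per the labels the submitters' processing notes name Trimmomatic 0.36, STAR 2.5.2b, featureCounts of Subread 1.5.2 and the build GRCh38. The authors deposited 1 table of raw counts per gene (not normalized) and 1 table of TPM (scaled by transcript length and library size). Authors' fold changes and p-values were not used. All columns matched a sample; 0 were left out. The 485 genes without a symbol stayed in the tests.

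Counts were filtered with filterByExpr, scaled by TMM and fitted in edgeR 4.0.16 (R 4.3.3, limma 3.58.1) with 1 mean per group and no block. The 33 genes and the lists were chosen with earlier results of these data known. Members past an adjusted p of 0.05 are given with values from a log2 change of 0.5, and with every library from 1; of the complex and reader lists the 2 largest rises and 2 largest falls are named in 4 comparisons, except 1 gene that is not reported here. Members HDAC9, HDAC11, HDAC1 and BRD2 were added to those shown by library after their values were seen. The scripts were tested on simulated counts. Alternatives were DESeq2 1.42.0 (Wald test, the study's tool, or its size factors in edgeR), library totals, other filters, the replicate block, only the groups compared, each library left out, and ratios of TPM with a pseudocount of 0.01. Replicates differed by more than sampling noise (chi-square per degree of freedom at least 2.77).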

Additional observations from a re-analysis of the deposited data

Results flagged for a closer look

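HDAC9 stood out because the response to mtDNA differed with and without acetate. The interaction of acetate and mtDNA was -0.376 on the log2 scale (edgeR's quasi-likelihood test, adjusted p = 0.0156), with 33.9 to 35.2 CPM in Sen(IR)+CCCP, 36.6 to 37.6 with acetate, 56.2 to 62.8 with mtDNA and 47.6 to 52.6 with both. The adjusted p was 0.0533 without library 3 of Sen(IR)+CCCP+mtDNA and 0.00974 without library 2 of the combination. The test was run on all 16994 genes, of which 13 were called higher and 99 lower, and the cause was not tested. Groups of 3 libraries were too small for the test for single outlying samples.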

How the results depend on the processing

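Of 154 single calls of members, the same direction and side of the threshold held for 151 with DESeq2 size factors, 126 with library totals, 136 without a filter, 152 with at least 10 counts in every library, 147 in fits of only the groups compared and 146 with DESeq2's Wald test; 119 were kept whichever library was left out. On TPM 70 of the 154 changes lay within the square root of 2 times the SE of the edgeR change. A further 80 kept their direction but lay outside that range, and 4 reversed. In none of the 8 pairs of groups compared were all 3 correlations of same-numbered deviations above 0.1 (-0.342 to 0.203), so the numbers were not taken to pair the samples. They were above 0.1 for Sen(IR) with Sen(IR)+CCCP+mtDNA (0.123 to 0.328), which were not compared, and for the latter with Sen(IR)+CCCP+Acetate (0.0682 to 0.115) each was above those of unlike numbers. A fit with the replicate block gave 20 higher and 5 lower after CCCP, 4 and 3 for the combination against acetate, 9 and 14 for acetate in cells with mtDNA and 19 and 4 for acetate against Sen(IR), removed 2 of the 154 calls (KAT8 in the second and BRD3 in the third of these) and left the other counts as reported. Library totals gave 2 members lower after CCCP, 1 higher and 8 lower with mtDNA, 3 higher with both agents, 1 higher and 8 lower with mtDNA in the presence of acetate, 5 higher with acetate in the presence of mtDNA, and 2 lower for acetate against Sen(IR). They turned the change of HDAC1 after CCCP to 0.000433 and that of HDAC2 with both agents to -0.0189. TPM turned HDAC1 and HDAC5 after CCCP to 0.169 and 0.11, and KAT2B and KAT7 for acetate against Sen(IR) to 0.0967 and 0.165. Without a filter 3 members rose after irradiation and 1 with mtDNA in the presence of acetate, where DESeq2 size factors gave 5 and the Wald test 6. Leaving out each library in turn gave 4 to 6 members higher after irradiation, 2 to 3 lower with mtDNA, 2 to 4 lower for acetate against Sen(IR), 0 to 2 lower in the interaction and 3 to 5 called the same way in both mtDNA comparisons, a count that was added after the data were seen. The cause of these differences was not tested. Depth limits SIRT4 most, at 13 counts in its lowest library.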
